A study of Rattus norvegicus with 8 samples.

Results

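Clustered histone genes carry the symbols Hist1h, Hist2h, and Hist3h in the rat annotation, and 36 protein-coding genes of the 32883 annotated genes had such a symbol. All 36 were kept whatever their counts, with 26 genes of the Hist1 cluster, 8 of the Hist2 cluster, and 2 of the Hist3 cluster. The set was chosen by symbol, and it was proposed with the level of *Hist1h1c* after running already known, so the differences between the groups are given as a description without a test. The study asked how the Achilles tendon responds to a single bout of treadmill running. Male wild-type (WT) Sprague-Dawley (SD) rats, 8 to 10 weeks old, ran uphill for 1 hour and were killed 12 hours later (12 h p.r., 4 rats). Caged rats of the same strain, sex, and age that did not run were killed at the same time (naïve control, NC, 4 rats). The RNA of the right Achilles tendon of each rat was sequenced as 1 stranded library of polyadenylated (polyA) mRNA.

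Histones are the proteins around which DNA is wound. The core histones H2A, H2B, H3, and H4 form the spool, and the linker histone H1 binds where the DNA enters and leaves it. Most clustered histone genes have no introns and are switched on during S phase, when new DNA has to be packed. Their mRNAs normally end in a stem-loop instead of a polyA tail, and the stem-loop binding protein SLBP directs this processing. A polyA library therefore holds only those histone transcripts that carry a tail, such as the polyadenylated forms that some clustered genes make in cells that do not divide. Many of the genes are near-identical copies, and neither the handling of reads that fit more than 1 gene nor the use of the strand in counting is stated. The split of reads between such copies is uncertain for every member described here.

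The promoters of the H1 genes are shown because *Hist1h1c*, on which the results turn, is one of them, and because their levels in these polyA libraries were far apart. The sequences are those of RefSeq on the rat build GRCr8, where 30 members matched 1 gene, 5 matched several, and 1 matched none. *Hist1h1c* is among those that matched several, and its window is that of H1f2, the RefSeq gene with *Hist1h1c* as its only older symbol, so that this match is uncertain. Each line below gives the 150 bases before the transcription start of 1 H1 gene, with matches to CCAAT and TATAAA and to the H1 box AAACACA in capitals on either strand, so that ATTGG marks a CCAAT on the other strand. No window was used for *Hist1h1d*. The windows lie at chr17:41820454-41820603 on the minus strand for *Hist1h1c*, chr17:41914275-41914424 on the plus strand for *Hist1h1e*, chr17:47421725-47421874 on the plus strand for *Hist1h1b*, chr17:41855961-41856110 on the minus strand for *Hist1h1t*, and chr17:41794869-41795018 on the minus strand for *Hist1h1a*.
Hist1h1c: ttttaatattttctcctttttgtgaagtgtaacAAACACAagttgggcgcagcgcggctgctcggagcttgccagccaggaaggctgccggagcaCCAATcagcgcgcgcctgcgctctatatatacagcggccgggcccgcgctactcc
Hist1h1e: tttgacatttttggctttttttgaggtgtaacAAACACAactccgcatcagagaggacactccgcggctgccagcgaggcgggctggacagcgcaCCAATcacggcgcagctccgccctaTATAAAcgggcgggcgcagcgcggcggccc
Hist1h1b: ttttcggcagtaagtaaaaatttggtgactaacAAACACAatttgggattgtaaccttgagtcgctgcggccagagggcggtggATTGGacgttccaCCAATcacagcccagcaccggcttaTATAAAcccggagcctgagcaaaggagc
Hist1h1t: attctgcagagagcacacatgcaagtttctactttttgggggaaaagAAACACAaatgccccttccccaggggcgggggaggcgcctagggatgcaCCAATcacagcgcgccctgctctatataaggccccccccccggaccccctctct
Hist1h1a: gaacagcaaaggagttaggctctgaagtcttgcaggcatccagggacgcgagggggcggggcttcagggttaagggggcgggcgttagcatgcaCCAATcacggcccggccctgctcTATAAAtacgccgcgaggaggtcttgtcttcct
The first base of the H1 box stood at -117 from the start in *Hist1h1c* and *Hist1h1b*, at -118 in *Hist1h1e*, and at -103 in *Hist1h1t*, and no match was present in the *Hist1h1a* window. A CCAAT stood between -53 and -56 in all 5 windows. A TATAAA was matched at -30 in *Hist1h1e*, -28 in *Hist1h1b*, and -33 in *Hist1h1a*, and none was matched in *Hist1h1c* or *Hist1h1t*. Only this exact word was searched. Both of the latter windows hold the related letters TATATA between the CCAAT and the start, so that the lack of an exact match is not the lack of a TATA sequence.

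Over the 250 bases before the start, on both strands, 28 RefSeq genes of the family could be searched and set beside 33469 windows of the same length. The H1 box was present in 4 of 5 H1 windows, 2 of 11 H2A windows, and 1 of 8 H2B windows, against 6.08% of all windows. The octamer ATTTGCAT, a motif known from H2B promoters, was present in 0 of 5 H1 windows, 5 of 11 H2A windows, and 5 of 8 H2B windows, and in 1.56% of all windows. CCAAT was present in 25 of the 28 family windows (34.0% of all windows) and TATAAA in 17 of 28 (12.9% of all windows). The windows of neighboring genes can overlap, as those of *Hist2h2ac* and *Hist2h2be* do, so that 1 site can count for both genes and for both classes. These are letter matches, not measured binding sites.

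Divergent H2A and H2B pairs share 1 promoter, and the pair *Hist2h2ac* and *Hist2h2be* is shown because its members were measured at different levels. The 225 bases between their starts lie at chr2:186469227-186469451, printed on the plus strand (GRCr8), with CCAAT and TATAAA and the octamer in capitals on either strand.
Hist2h2ac and Hist2h2be: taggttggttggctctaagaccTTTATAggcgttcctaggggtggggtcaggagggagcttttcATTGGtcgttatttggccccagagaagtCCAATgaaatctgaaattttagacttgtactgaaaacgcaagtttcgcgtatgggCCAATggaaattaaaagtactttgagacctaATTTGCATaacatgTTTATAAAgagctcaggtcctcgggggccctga
Read on the strand of *Hist2h2be*, the stretch holds CCAAT at 2 places, TATAAA at 1, and the octamer at 1. Read on the strand of *Hist2h2ac*, it holds CCAAT at 1 place, TATAAA at 2, and no octamer. Of these 2, 1 overlaps the TATAAA on the strand of *Hist2h2be*, in the letters TTTATAAA near the start of *Hist2h2be*. The other lies near the start of *Hist2h2ac*. The H2B gene *Hist2h2be* had 123 reads over the 8 rats, and the H2A gene *Hist2h2ac* had 5, all in NC rats.

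The reads counted on genes ran from 7350509 to 12951397 per rat, and genes with low counts were removed before the fit across all genes, which left 13937. Levels are given as CPM, counts per 1000000 reads scaled between rats by TMM factors. The 8 tenocyte markers, the genes that define the labeled tissue, were all measured, with a summed level of 16273 to 48542 CPM at 12 h p.r. and 27363 to 40831 CPM in NC. Most of this sum was *Col1a1*, with means of 24803 CPM at 12 h p.r. and 26687 CPM in NC. *Tnmd* had means of 309 and 325 CPM and *Scx* of 53.1 and 34.7 CPM, so that the sum says little about them. 1 library stood apart. In 12 h p.r. replicate 3, the 7 measured skeletal muscle markers had a sum of 50963 CPM, whereas the rest of the rats had 2020 to 9562 CPM. The tenocyte sum of this rat, which mostly follows *Col1a1*, was the lowest of all. Results that rest on this rat are given below with and without it. In whole tissue, fewer cells of a type and less RNA per cell cannot be told apart.

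*Hist1h1c*, which encodes an H1 linker histone, had by far the most reads of the family in these polyA libraries. It held 6006 of the 10011 reads of all members, and *Hist1h2bcl1*, an H2B gene, held another 3075. The other 34 members shared 9.29% of the reads, and 4 of them (*Hist1h2ao*, *Hist3h2bb*, *Hist1h3a*, and *Hist1h2bl*) had no read in any rat, which allows a level of up to 0.0375 CPM over the 8 rats (3 counts). Counting error alone is covered by this limit. In all, 22 members, these 4 included, had under 10 reads, and 6 members were kept for the fit.

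Per gene length, as the FPKM (fragments per kilobase and 1000000 fragments) values of the authors, the family covered a wide range. *Hist1h1c* had a mean of 121 FPKM over the 8 rats (66.6 to 171), *Hist1h2bcl1* 41.4 FPKM (31.3 to 75.0), and *Hist2h2aa2* 7.92 FPKM (5.36 to 12.7). The next members were the H4 gene *Hist1h4b* with a mean of 6.53 FPKM, the H2B gene *Hist2h2be* with 4.15 FPKM, the H1 gene *Hist1h1d* with 2.12 FPKM, and the H2A gene *Hist2h2aa3* with 2.06 FPKM. The H4 gene *Hist2h4* had 1.25 FPKM, the H1 gene *Hist1h1e* 0.659 FPKM, and the H2B gene *Hist1h2bo* 0.425 FPKM, and every other member had less. Only *Hist1h2bcl1* and *Hist2h2aa2* were neighbors in this order whose ranges over the rats did not overlap. *Hist1h1c* exceeded *Hist1h2bcl1* in 8 of 8 rats, although the lowest NC value of the former lay below the highest 12 h p.r. value of the latter. Among 22250 protein-coding genes ordered by FPKM in each rat, *Hist1h1c* took places 425 to 504 at 12 h p.r. and 733 to 1120 in NC.

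**Figure D1:**
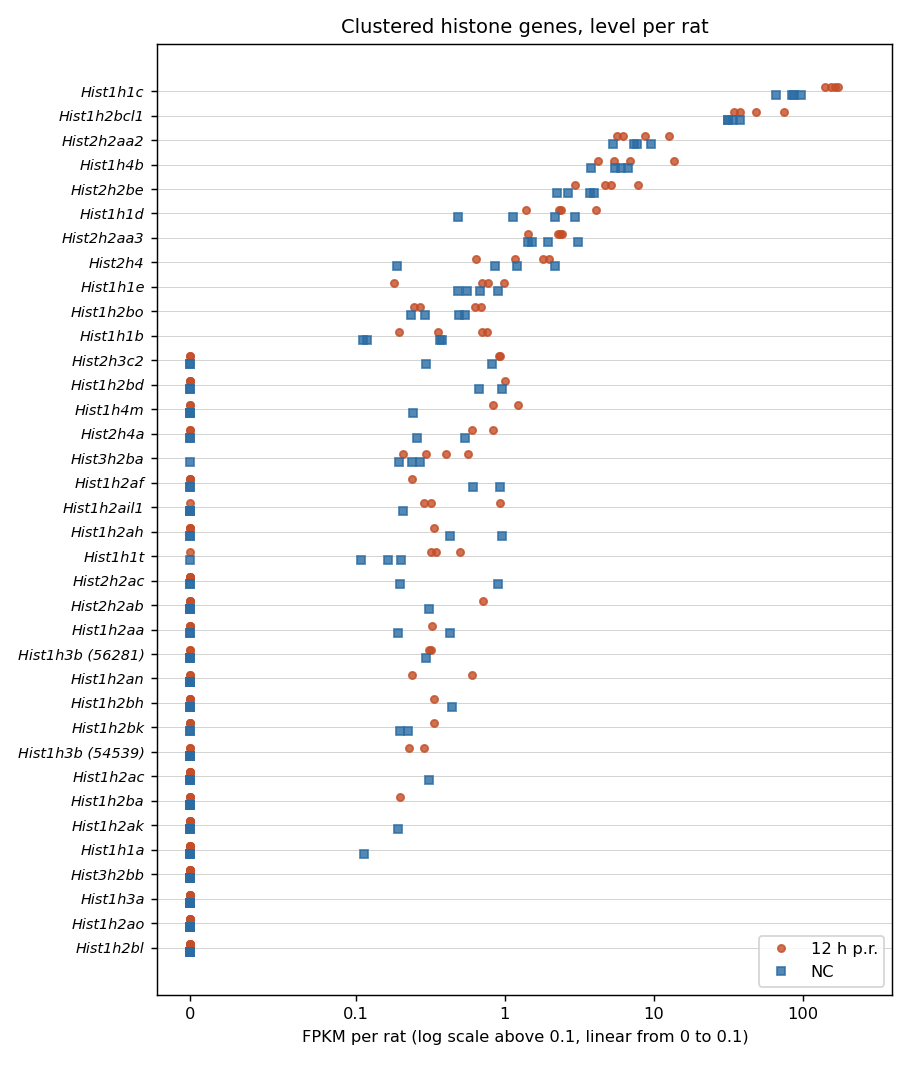
FPKM of each of the 36 clustered histone genes (rows, by mean level) in each rat, with circles for the 4 rats at 12 h p.r. and squares for the 4 NC rats; the axis is logarithmic above 0.1 and linear below, and the number after the repeated symbol Hist1h3b is the end of its Ensembl identifier. *Hist1h1c* stands at 66.6 to 171 FPKM, and most members lie at or near 0.

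Among the histone classes, H1 genes took 61.7% of the member reads, H2B genes 32.6%, H2A genes 3.43%, H4 genes 2.1%, and H3 genes 0.170% (17 reads). The class shares thus followed single genes. *Hist1h1c* alone made up 94.1 to 98.6% of the H1 reads of each rat and 50.1 to 70.9% of the reads of all members. The other H1 genes were low, with 106 reads for *Hist1h1d*, 35 for *Hist1h1e*, 19 for *Hist1h1b*, 12 for *Hist1h1t*, known as the testis form, and 1 read for *Hist1h1a*.

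At 12 h p.r., *Hist1h1c* (ENSRNOG00000054978) was measured at 91.4, 106, 109.8, and 99.9 CPM in replicates 1 to 4, from 706, 808, 923, and 1064 reads. In NC replicates 1 to 4, it was measured at 56.2, 42.7, 54.3, and 62.6 CPM, from 701, 348, 719, and 737 reads. All 4 rats that ran lay above all 4 control rats. The 95% exact Poisson intervals of the lowest running rat (84.8 to 98.4 CPM) and the highest control rat (58.2 to 67.3 CPM), which cover counting error only, did not overlap either. The means of the groups (± SD, n = 4 each) were 102 ± 8.14 CPM after running and 53.9 ± 8.31 CPM in NC. The log2 fold change was 0.92 (SE, 0.12), or 1.89-fold, and the standard error comes from edgeR's quasi-likelihood fit. Of all genes tested, 223 (1.6%) had a log2 fold change at least as large, and nothing is read from this place, since the gene was known for this difference. Without 12 h p.r. replicate 3, the log2 fold change was 0.88 (SE, 0.13).

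*Hist1h2bcl1* (ENSRNOG00000021198) was measured at 47.0, 32.9, 71.4, and 36.0 CPM in 12 h p.r. replicates 1 to 4 and at 30.1, 29.8, 36.1, and 32.5 CPM in NC replicates 1 to 4. Replicates 1 and 3 lay above every control rat, whereas replicates 2 and 4 lay within the control range. The means were 46.8 ± 17.4 CPM and 32.1 ± 2.92 CPM (SD, n = 4 each), with a log2 fold change of 0.54 (SE, 0.23). Without replicate 3, the rat with the high muscle markers, the log2 fold change was 0.27 (SE, 0.14). The part of the muscle RNA in this difference was not tested.

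The other 4 members with enough reads overlapped between the groups. The H2A gene *Hist2h2aa2* (ENSRNOG00000047898) was at 2.24 to 5.05 CPM at 12 h p.r. and 2.11 to 3.80 CPM in NC, with a log2 fold change of 0.16 (SE, 0.31) that turned to -0.12 without 12 h p.r. replicate 1. *Hist1h4b* (ENSRNOG00000045840) was at 1.32 to 4.28 CPM and 1.19 to 2.08 CPM, with 0.46 (SE, 0.39) on the log2 scale. The highest value was again that of 12 h p.r. replicate 3, and without this rat the log2 fold change of *Hist1h4b* was 0.01 (SE, 0.32). *Hist2h2be* (ENSRNOG00000045753) was at 1.13 to 2.98 CPM and 0.858 to 1.52 CPM, with a log2 fold change of 0.67 (SE, 0.35) with replicate 3 and 0.40 (SE, 0.35) without it. *Hist1h1d* (ENSRNOG00000048264) was at 0.922 to 2.74 CPM and 0.321 to 1.96 CPM, with 0.65 (SE, 0.53) with that rat and 0.34 (SE, 0.56) without it, and with values of 0.33 to 1.02 when any single rat was left out. In each of these 3 genes, the standard error without replicate 3 was close to the difference or larger than it, and the replicates of a group spread over wide ranges.

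**Figure D2:**
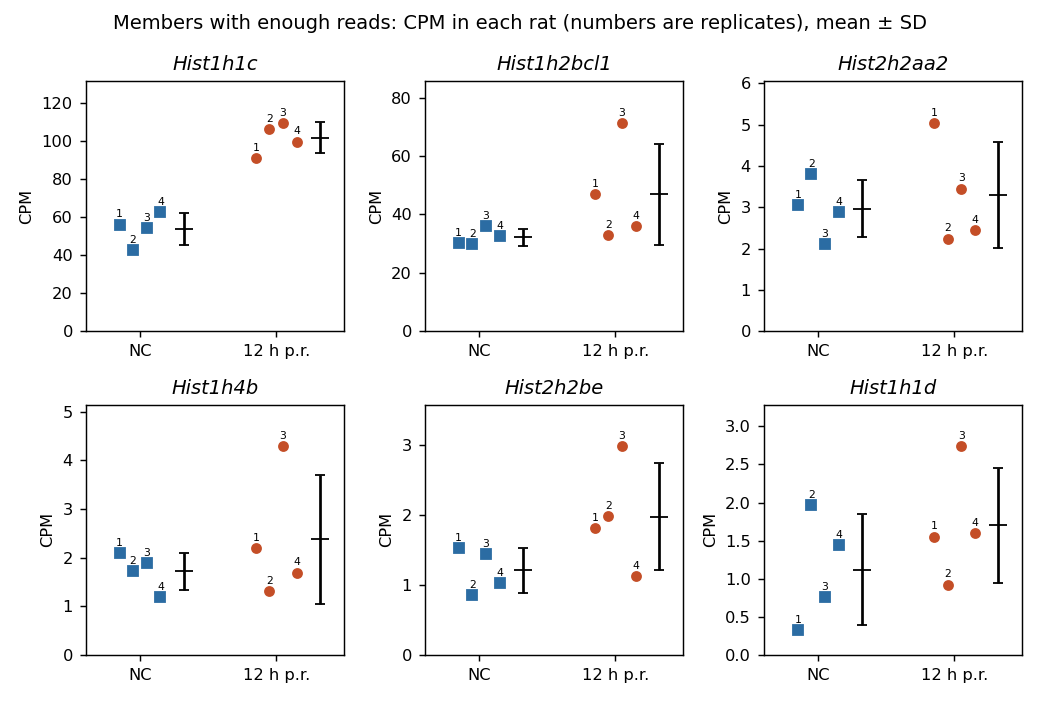
CPM of the 6 members kept for the fit, 1 panel per gene with its own axis from 0, with squares for NC rats, circles for 12 h p.r. rats, replicate numbers above the points, and bars for mean ± SD (n = 4). Only for *Hist1h1c* do the groups not overlap, with 91.4 to 109.8 CPM after running and 42.7 to 62.6 CPM in NC.

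Over the 6 members tested, the log2 fold change was above 0 in 6, as it was in 54.2% of all genes tested, and the median was 0.60, beside 0.02 over all 13937 genes. The median without 12 h p.r. replicate 3 was 0.30. Groups that did not overlap, with higher values at 12 h p.r., were seen in 1 member (*Hist1h1c*), beside 3.52% of all genes, and lower values without overlap in none of them (2.55% of all genes). An unadjusted p-value under 0.05 was reached by 2 members (*Hist1h1c* and *Hist1h2bcl1*), beside 9.51% of all genes (5.44% higher and 4.08% lower), and both were higher at 12 h p.r. The count was 1 when 12 h p.r. replicate 1 or 3 or NC replicate 1, 2, or 4 was left out. Because the set was proposed from this contrast, nothing is read from these counts. With both thresholds of the study (2-fold and an adjusted p-value of 0.05), edgeR's quasi-likelihood test called 0 genes (0%) higher and 0 lower of the 13937. An unadjusted p-value under 0.05 was reached by 1326 of them. The DESeq2 Wald test called 11 of the same genes higher and 14 lower. For this contrast and these thresholds, the paper reports more protein-coding genes in both directions, from an earlier DESeq2 version. The counts given here therefore do not stand for its result, and the reason for the gap was not tested.

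**Figure D3:**
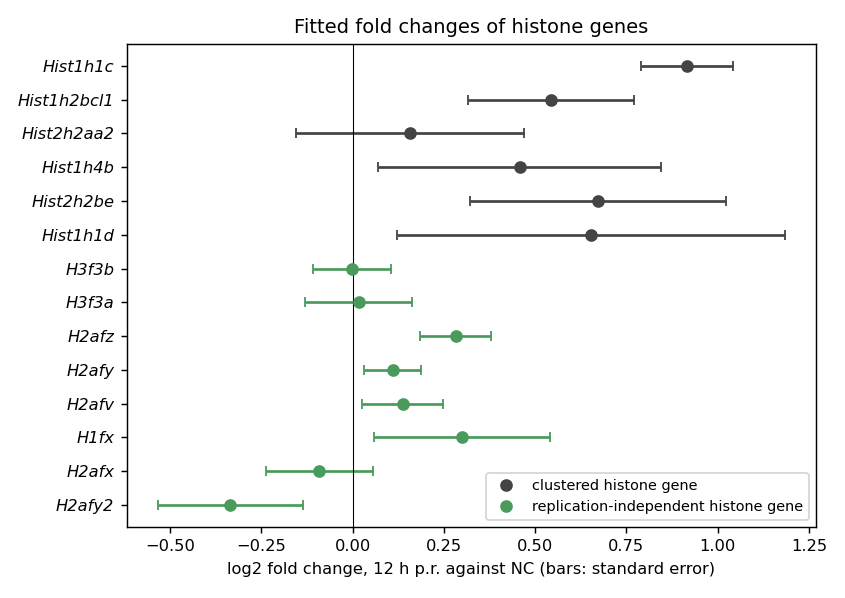
Fitted log2 fold change of 12 h p.r. against NC, with its standard error, for the 6 clustered histone genes kept for the fit and the 8 replication-independent histone genes tested. *Hist1h1c* stands at 0.92 (SE, 0.12), *H3f3b* and *H3f3a* lie next to 0, and the clustered genes with few reads have wide bars.

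Of the 30 members with too few reads for the fit, 26 had any read. Of these, 16 had more CPM at 12 h p.r., and 10 had less. In the fit with no filter beyond 1 read, 22 of 32 members had a log2 fold change above 0, beside 51% of all 21046 genes. Most of the 26 had few reads, and nothing is read from these counts. The summed level of the 30 members was 3.81 to 5.05 CPM at 12 h p.r. and 2.40 to 4.50 CPM in NC, and the groups overlapped. The most abundant of them, *Hist2h2aa3*, had 62 reads, with a mean ± SD of 0.836 ± 0.183 CPM after running and 0.789 ± 0.304 CPM in NC. The H1 gene *Hist1h1e* had 15 reads at 12 h p.r. and 20 in NC, *Hist1h1b* had 12 and 7, and the single read of *Hist1h1a* came from an NC rat. At this depth, differences in these genes were not detectable.

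Summed over all 36 members, the family was at 162 ± 24.3 CPM at 12 h p.r. (147 to 198) and 96.5 ± 8.71 CPM in NC (85.2 to 106; SD, n = 4 each), a ratio of 1.68 between the means (1.56 without 12 h p.r. replicate 3). The H1 sum was at 105 ± 8.11 and 55.8 ± 8.06 CPM (ratio, 1.88), and the H2B sum at 49.7 ± 18.3 and 34.1 ± 3.01 CPM (ratio, 1.46, and 1.21 without that rat). The H2A sum was nearly equal, at 4.53 ± 1.43 and 4.31 ± 0.995 CPM (ratio, 1.05), and the H4 sum was at 3.21 ± 1.21 and 2.24 ± 0.451 CPM (ratio, 1.43, and 1.17 without that rat). With *Hist1h1c* and *Hist1h2bcl1* taken out, the remaining 34 members summed to 10.7 to 17.3 CPM at 12 h p.r. and 8.76 to 12.8 CPM in NC, and the groups overlapped. In 12 h p.r. replicate 3, the highest sum, *Hist1h2bcl1* accounted for 71.4 of 198 CPM.

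**Figure D4:**
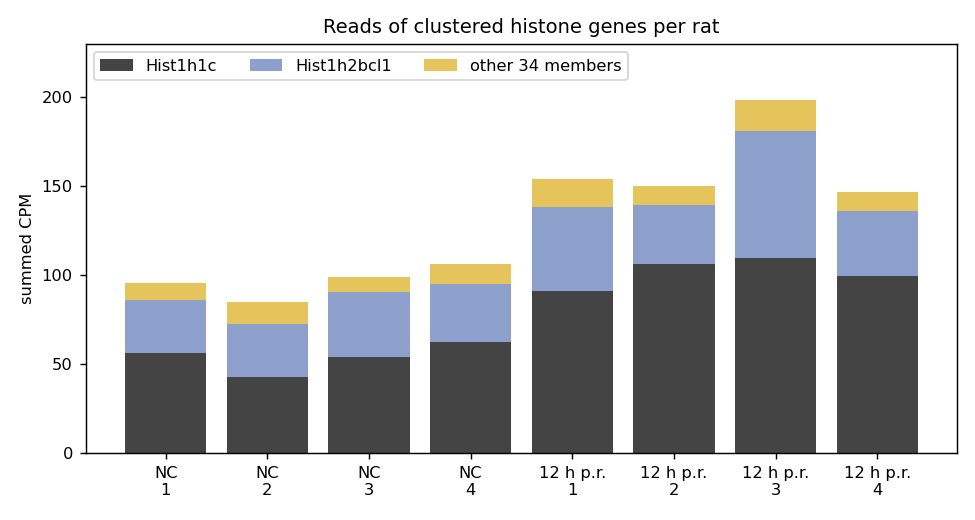
Summed CPM of the clustered histone genes in each rat, stacked as *Hist1h1c*, *Hist1h2bcl1*, and the other 34 members. The sums are 85.2 to 106 CPM in the 4 NC rats and 147 to 198 CPM in the 4 rats at 12 h p.r., and 12 h p.r. replicate 3 is the highest.

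The reads of *Hist1h1c* can also be given per read of a histone gene that lies outside the clusters and is transcribed throughout the cell cycle, a ratio within a library that needs no scaling. These ratios use the same *Hist1h1c* reads as above and are no further evidence of the difference. Per read of *H3f3b*, a gene of the replacement H3 histone, *Hist1h1c* had 0.358 to 0.422 reads at 12 h p.r. and 0.178 to 0.262 in NC. Per read of *H3f3a*, the other gene of that histone, it had 0.169 to 0.252 and 0.0981 to 0.112 reads. Per read of *H2afz*, which encodes the variant H2A.Z, it had 1.3 to 1.47 and 0.793 to 1.05 reads, and per read of *H2afy*, which encodes macroH2A, 1.37 to 1.70 and 0.629 to 1.00. None of these 4 ratios overlapped between the groups. The same ratios of *Hist1h2bcl1* overlapped for all 4 genes, for example 0.129 to 0.275 and 0.103 to 0.139 reads per read of *H3f3b*.

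The correlations between the 6 members kept for the fit differed widely from pair to pair. As a description over the 8 rats, on log2 CPM from shared libraries, *Hist1h1c* and *Hist1h2bcl1* had a Pearson *r* of 0.62, which fell to 0.19 when the group means were removed. *Hist1h2bcl1* and *Hist1h4b* had an *r* of 0.86 (0.87 with group means removed), and *Hist1h2bcl1* and *Hist2h2be* 0.80 (0.67). These 3 core histone genes were each highest in 12 h p.r. replicate 3, and without it, over 7 rats, the latter 2 coefficients were 0.42 and 0.47. *Hist1h1c* was closest to *Hist2h2be*, with an *r* of 0.69 (0.43 with group means removed, and 0.60 without 12 h p.r. replicate 3). *Hist1h1c* and *Hist2h2aa2* had an *r* of -0.03 (-0.50 with group means removed), the only negative one over the 8 rats. *Hist2h2aa2*, *Hist1h4b*, *Hist2h2be*, and *Hist1h1d* had only 106 to 242 reads each over the 8 rats, so that counting error weighs on their coefficients.

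The 5 genes most like *Hist1h1c* over the 8 rats were taken by Pearson *r* of log2 CPM among all genes tested. They were *Atoh8*, a basic helix-loop-helix transcription factor (*r* = 0.98), *Kif26a*, a kinesin family member (0.97), *Wipf2*, a WASP-interacting protein (0.97), *LOC100361543* (0.96), and *Gpr4*, a proton-sensing receptor (0.95). With the group means removed, these coefficients were 0.85, 0.80, 0.79, 0.56, and 0.76 in the same order. The 5 are the top of 13937 genes over 8 rats that share libraries, and their differences between the groups follow from this choice. Only 6 clustered histone genes were among those tested, so that the absence of other members from the top 5 says nothing about the family. *Atoh8* was at a mean of 17.5 CPM at 12 h p.r. and 8.31 CPM in NC, with a log2 fold change of 1.07. The log2 fold changes of the other 4 ran from 0.41 to 0.66. None of the 5 passed an adjusted p-value of 0.05 in the edgeR fit with Benjamini-Hochberg correction (0.118 for *Atoh8* and 0.385 to 0.426 for the others). The supplement of the paper, which used DESeq2, names *Atoh8*, *Gpr4*, and *LOC100361543* among its differentially expressed genes at 12 h p.r.

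The genes that make and handle histone mRNAs and proteins were split around 0 in their differences between the groups. Of 18 symbols listed for histone mRNA processing, 16 matched a gene and 15 were tested, 8 with a log2 fold change above 0 and 7 below, with a median of 0.02. 1 of them, *Lsm10*, a protein of the U7 particle that cuts histone pre-mRNA, had an unadjusted p-value under 0.05 (1 of 15, beside 9.51% of all genes), with a log2 fold change of 0.40 (SE, 0.15) and with 7.89 to 10.6 CPM at 12 h p.r. and 6.20 to 7.53 CPM in NC. It did not pass the adjustment (adjusted p = 0.477 by edgeR). *Slbp*, the stem-loop binding protein, was at 14.7 FPKM with a log2 fold change of -0.22 (SE, 0.17; adjusted p = 0.706 by edgeR). The cap-binding *Ncbp1* (18.4 FPKM) and the endonuclease *Cpsf3* (14.5 FPKM) were at -0.15 (SE, 0.08) and 0.20 (SE, 0.09).

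Of 12 symbols of replication-independent histone genes, 11 matched and 8 were tested, with 5 above and 3 below 0 and a median of 0.06. *H3f3b* had the highest level with 623 FPKM, above *Hist1h1c*, and a log2 fold change of -0.00 (SE, 0.11), and *H3f3a* had 313 FPKM and 0.02 (SE, 0.15). *H2afz* (172 FPKM) had the only unadjusted p-value under 0.05 among them (1 of 8, beside 9.51% of all genes), with a log2 fold change of 0.28 (SE, 0.10; adjusted p = 0.447 by edgeR). It was at 69.2 to 80.1 CPM at 12 h p.r. and 53.8 to 69.0 CPM in NC, without overlap, as were 3.52% of all genes with higher values.

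Genes of DNA replication and S phase, in which most clustered histone genes are used, were divided as well. Of 26 symbols, 25 matched and 24 were tested, 11 above and 13 below 0, with a median log2 fold change of -0.04, and 0 had an unadjusted p-value under 0.05 by edgeR or by DESeq2, beside 9.51% of all genes by edgeR. *Pcna*, the sliding clamp of DNA polymerase, was at 72.2 FPKM with -0.16 (SE, 0.10), *Cdc45* at 25.6 FPKM with 0.36 (SE, 0.18), and *Prim1*, a primase subunit, at 18.0 FPKM with -0.07 (SE, 0.17). The proliferation marker *Mki67* was at 0.554 FPKM with a log2 fold change of -0.09. Of 21 histone chaperone genes, all matched, 20 were tested, 10 above and 10 below 0, with a median of -0.04 and 0 at an unadjusted p-value under 0.05 by either tool (9.51% of all genes by edgeR). Their most abundant genes were *Npm1* (282 FPKM; log2 fold change, 0.05; SE, 0.12), *Nap1l1* (97.8 FPKM; 0.15; SE, 0.11), and *Rbbp7* (86.2 FPKM; -0.17; SE, 0.10).

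Markers of other cells were set beside the *Hist1h1c* difference. Of the 6 endothelial markers tested, 3 had an unadjusted p-value under 0.05 with a higher level at 12 h p.r. and 1 with a lower level (5.44% and 4.08% of all genes tested), and their sums were 1334 to 1745 CPM at 12 h p.r. and 1298 to 1428 CPM in NC. Of the 8 tenocyte markers, 3 were higher by the same measure (5.44% of all genes). Muscle, leukocyte, adipocyte, cartilage and bone, and marrow and blood markers had 0 such genes, and their sums overlapped between the groups (leukocyte, 636 to 2586 CPM and 901 to 3839 CPM; adipocyte, 2693 to 6455 CPM and 3792 to 6592 CPM; cartilage and bone, 79.1 to 702 CPM and 152 to 1438 CPM; marrow and blood, 12.0 to 20 CPM and 11.1 to 28.0 CPM). No matched marker was at 0 in all rats. Their part in the level of *Hist1h1c* was not tested.

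**Figure D5:**
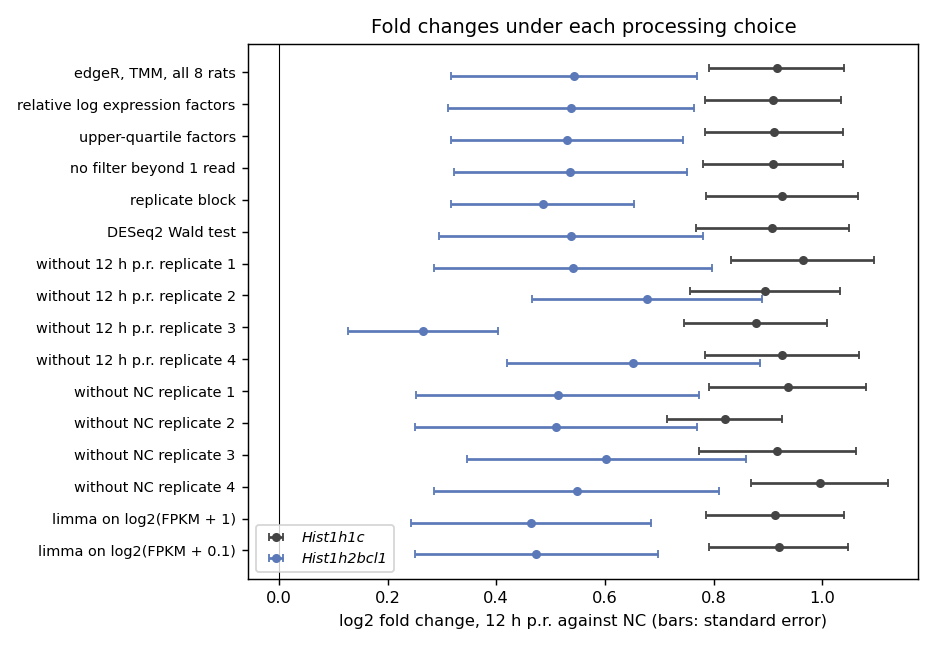
Log2 fold change of 12 h p.r. against NC with its standard error for *Hist1h1c* and *Hist1h2bcl1* under each processing choice, from other scaling factors to leaving out each rat in turn. *Hist1h1c* stays between 0.82 and 1.00, and *Hist1h2bcl1* is lowest at 0.27 without 12 h p.r. replicate 3.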

How the data were processed

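PolyA mRNA was measured in the right Achilles tendon of 4 rats at 12 h p.r. and 4 NC rats, with 1 library per rat. Groups and replicate numbers were taken from the labels. The authors aligned the reads to Rnor_6.0 with HISAT2 2.1.0 and deposited whole-read counts per Ensembl gene from featureCounts 1.6.3. The authors also deposited FPKM values, in which counts are scaled by the length of the gene and by size factors of the rats equal to those that DESeq2 gives for the counts. A deposited table of the authors' own comparison (log2 fold changes and p-values by DESeq2 1.30.1) was not used.

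Counts were filtered with filterByExpr of edgeR 4.0.16 (R 4.3.3), scaled by TMM factors, and compared with the quasi-likelihood test (Benjamini-Hochberg, all genes tested). Standard errors were derived from its F statistic. CPM is per 1000000 reads of the scaled library, and log2 CPM used a pseudocount of 0.5. P-values set the difference between the groups against the spread between the rats of a group, which the fit estimates with information shared across genes. Alternatives were relative log expression and upper-quartile factors, no filter beyond 1 read, the Wald test of DESeq2 1.42.0, a replicate block, limma 3.58.1 for genes of at least 0.1 FPKM on average (log2 of FPKM with 1 or 0.1 added), and leaving out each rat.

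The members and lists were chosen with earlier results of these data known. The genes named were *Hist1h1c*, the members kept by the filter, the 10 members with the highest mean FPKM, all clustered H1 genes, the 3 genes of each list with the highest mean FPKM and any with an unadjusted p-value under 0.05, and the 5 genes with the highest *r* with *Hist1h1c*. *Mki67*, *H2afy*, and members named for having no read or for a shared promoter were added after their values were seen. Total counts ran from 7350509 to 12951397 per rat, so that genes near 1 CPM rest on few reads. No library was left out of the fit, and no pair of libraries of 1 group agreed within sampling noise.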

Additional observations from a re-analysis of the deposited data

Results flagged for a closer look

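The summed level of the clustered histone genes in 12 h p.r. replicate 3 lay apart from the other rats of its group, at 7.64 on the log2 CPM scale, with the nearest other rat at 7.27. The gap was 0.842 of the range of the 4 rats, above Dixon's limit of 0.829. Among 24 groups of 4 values searched, 1 was past the limit, and chance gives about 1.2 (1 in 20). The muscle markers of this rat summed to 50963 CPM, and their part in the value was not tested.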

How the results depend on the processing

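The log2 fold change of *Hist1h1c* (0.92) kept its direction under all 15 alternatives, from 0.82 (without NC replicate 2) to 1.00 (without NC replicate 4). The gene was proposed from this contrast and its groups do not overlap. Leaving out 1 rat could therefore not reverse the direction, and nothing is read from its being kept. With the replicate number as a block, the log2 fold change of *Hist1h1c* was 0.93. The deviations of same-numbered rats correlated at 0.07, -0.20, 0.13, and 0.09, so the numbers were not taken as a pairing. In this block fit, the genes of histone mRNA processing with an unadjusted p-value under 0.05 were 0 instead of 1, and no other call in the family changed. Among the 13323 protein-coding genes tested, the DESeq2 Wald test called 10 higher and 14 lower, against 0 and 0 by edgeR, and among all 13937 genes 11 and 14, against 0 and 0. The paper reports more protein-coding genes in both directions. The median over the family was 0.60 over 6 members, 0.16 with limma on log2(FPKM + 1) and 0.38 on log2(FPKM + 0.1) over 25 members, 0.49 over 32 members without the filter, and 0.30 to 0.67 when 1 rat was left out. When 1 rat was left out, all genes with an unadjusted p-value under 0.05 numbered 879 (without NC replicate 4) to 1580, against 1326, and members 1 to 3, against 2, with 1 without 12 h p.r. replicate 1, 12 h p.r. replicate 3, NC replicate 1, NC replicate 2, or NC replicate 4. The list counts were then 0 to 4 for histone mRNA processing, 0 to 2 for replication-independent histones, 0 to 3 for S phase, and 0 to 1 for histone chaperones. *Hist2h2aa2* turned to -0.12 without 12 h p.r. replicate 1. The causes of these shifts were not tested. Depth limits the 30 members not fitted, none of which had more than 62 reads, and the polyA libraries and the unstated handling of shared reads limit all members.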
